A study of Mus musculus with 8 samples.

Results

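The Slc30a family of zinc transporters was followed in RNA-seq of whole islets from *Itgb1* mutant and control mice. The members were the 10 genes *Slc30a1* to *Slc30a10*, taken by symbol from the 24091 genes of the deposited count table. All 10 were listed, and 7 of them were among the 15233 genes with enough counts to be tested. *Slc30a2*, *Slc30a3* and *Slc30a10* did not reach the minimum, and their counts are given without a test across genes. Islets were isolated at 6 weeks of age. The 4 mutant libraries are labelled Ngn3-Cre, itgb1-/- and the 4 control libraries wild-type, and both genotypes are on C57BL/6. *Itgb1* encodes the β1 subunit of integrins, the cell surface receptors for extracellular matrix. Ngn3-Cre acts in the progenitors of the islet endocrine cells, so the endothelial, stromal, exocrine and immune cells that come with an isolated islet keep the gene. Whether each library came from a separate mouse is not stated in the labels, and the supplement of the study counts fewer animals per genotype than there are libraries. Some libraries may therefore share an animal, in which case the p-values over libraries are too small.

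Most Slc30a proteins, also called ZnT, move zinc out of the cytosol, either across the plasma membrane or into organelles and vesicles. Slc39a proteins, also called ZIP, move it the other way, metallothioneins bind it in the cytosol, and the zinc sensor Mtf1 switches on metallothionein genes and *Slc30a1* when zinc is high. The family is best known in islets for *Slc30a8*, whose product ZnT8 loads insulin granules with the zinc around which insulin crystallizes. Human variants of *SLC30A8* are linked to type 2 diabetes risk, and ZnT8 is an autoantigen in type 1 diabetes.

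The promoters of *Slc30a1* and of the metallothionein genes *Mt1* and *Mt2* are shown because these genes are the textbook targets of Mtf1, and their levels are set side by side further on. Each line is the 250 bases before the annotated start, from RefSeq on GRCm38.p6, 5′ to 3′ on the strand of the gene. Capitals mark the core of the metal response element, TGCACNC or TGCGCNC, searched on both strands.
*Slc30a1*, chr1:191906531-191906780, plus strand: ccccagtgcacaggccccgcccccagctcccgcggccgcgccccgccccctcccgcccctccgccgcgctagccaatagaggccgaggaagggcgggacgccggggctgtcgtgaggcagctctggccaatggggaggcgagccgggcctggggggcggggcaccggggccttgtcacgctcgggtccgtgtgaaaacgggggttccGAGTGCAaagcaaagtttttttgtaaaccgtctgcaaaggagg
*Mt1*, chr8:94178839-94179088, plus strand: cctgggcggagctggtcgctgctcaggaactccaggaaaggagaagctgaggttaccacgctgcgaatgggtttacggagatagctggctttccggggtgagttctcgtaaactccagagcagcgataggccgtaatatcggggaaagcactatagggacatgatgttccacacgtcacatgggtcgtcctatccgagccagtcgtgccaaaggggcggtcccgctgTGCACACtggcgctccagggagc
*Mt2*, chr8:94172368-94172617, plus strand: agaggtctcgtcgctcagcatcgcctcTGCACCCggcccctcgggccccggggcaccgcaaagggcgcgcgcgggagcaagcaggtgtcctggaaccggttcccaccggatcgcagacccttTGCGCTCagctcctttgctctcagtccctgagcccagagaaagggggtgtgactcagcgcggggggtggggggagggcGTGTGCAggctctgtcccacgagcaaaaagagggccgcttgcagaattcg
The *Slc30a1* window held 1 match, 43 bases before the start and on the opposite strand, where it reads GAGTGCA. *Mt1* held 1 match, TGCACAC, 23 bases before the start, and *Mt2* held 3, at 223, 128 and 50 bases. Of all 32851 RefSeq windows of this length, 21.4% held at least 1 match and 5.17% held at least 2. RefSeq windows were matched for 9 of the 10 members, with 10 windows in all, of which 6 held a match. A match of these letters is a description and not a binding site. Bases after the annotated start, or farther before it, were not searched. The counts of matches are therefore those of the window and not of the whole promoter.

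The libraries themselves differed before any zinc gene was considered. Control 2, control 3 and mutant 3 held 62.2 to 67.6 M counts assigned to genes, and the other 5 libraries 35.1 to 41 M. *Itgb1* had 266, 226, 193 and 255 CPM in mutants 1 to 4, against 422, 432, 408 and 315 CPM in controls 1 to 4, where CPM are counts per 1 M counts after TMM scaling. The 4 mutants all lay below the 4 controls, at a log2 fold change of -0.75 (edgeR quasi-likelihood test, adjusted p = 0.256; DESeq2, adjusted p = 0.0012). Exons outside the deleted part are included in these counts. All 8 β-cell markers had lower values in mutants, 4 of them at an unadjusted p below 0.05. At that p, 6.89% of all tested genes were lower and 6.4% higher. The sum of the β-cell markers ranged over 31700 to 49320 CPM in mutants, against 32350 to 173200 CPM in controls. The 13 of 14 acinar markers with enough counts were all lower, 10 at an unadjusted p below 0.05, with sums of 135.7 to 839 CPM in mutants, against 61.68 to 11720 CPM in controls. Controls 2 and 3 alone supplied the high end of both sums. *Amy2b* and *Ctrc* of the acinar list were at 0 in some libraries. Of 8 fibroblast, stellate and pericyte markers 7 were higher, 6 at an unadjusted p below 0.05, with sums of 657 to 880 CPM in mutants and 323 to 478 CPM in controls. All 5 α-cell markers were lower, 4 at an unadjusted p below 0.05, with sums of 10440 to 20120 CPM in mutants and 19250 to 92780 CPM in controls. All 4 δ- and PP-cell markers were lower, 1 at an unadjusted p below 0.05, with sums of 2005 to 6771 CPM in mutants and 4308 to 7821 CPM in controls. Of 6 duct markers 5 were higher, 2 at an unadjusted p below 0.05, with sums of 1060 to 2944 CPM in mutants and 304.5 to 1609 CPM in controls. Endothelial sums were 490 to 614 CPM in mutants and 510 to 604 CPM in controls. By *Xist* and *Ddx3y*, mutant 3 and control 3 came from females and the other 6 from males. The part of these differences in the results that follow was not tested.

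Across the family, *Slc30a8* and *Slc30a1* had lower values in *Itgb1*-deleted islets at an unadjusted p below 0.05, and the other 5 tested members did not. At the adjusted p below 0.05 and fold change above 2 used by the study, 0 of the 7 members passed the edgeR quasi-likelihood test. Of all 15233 genes 0 passed as well, which is 0% (the smallest adjusted p over all genes was 0.118). The study itself reports genes that pass these thresholds in both directions, from a fit that corrected for batches. No batch term entered the fit here, so its calls and those of the study come from unlike fits. At an unadjusted p below 0.05, 2 members were lower and 0 higher, where 6.89% of all tested genes were lower and 6.4% higher. DESeq2 called 1 of the 7, *Slc30a8*, and 1.22% of all genes (186 of 15233). For 0 of the 7 members did all mutants lie below or all lie above the controls, which occurred in 3.8% and 4.4% of tested genes. The fold change was above 0 for 1 member and below 0 for 6, with a median log2 value of -0.07 and a median over all genes of 0.0015.

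**Figure D1:**
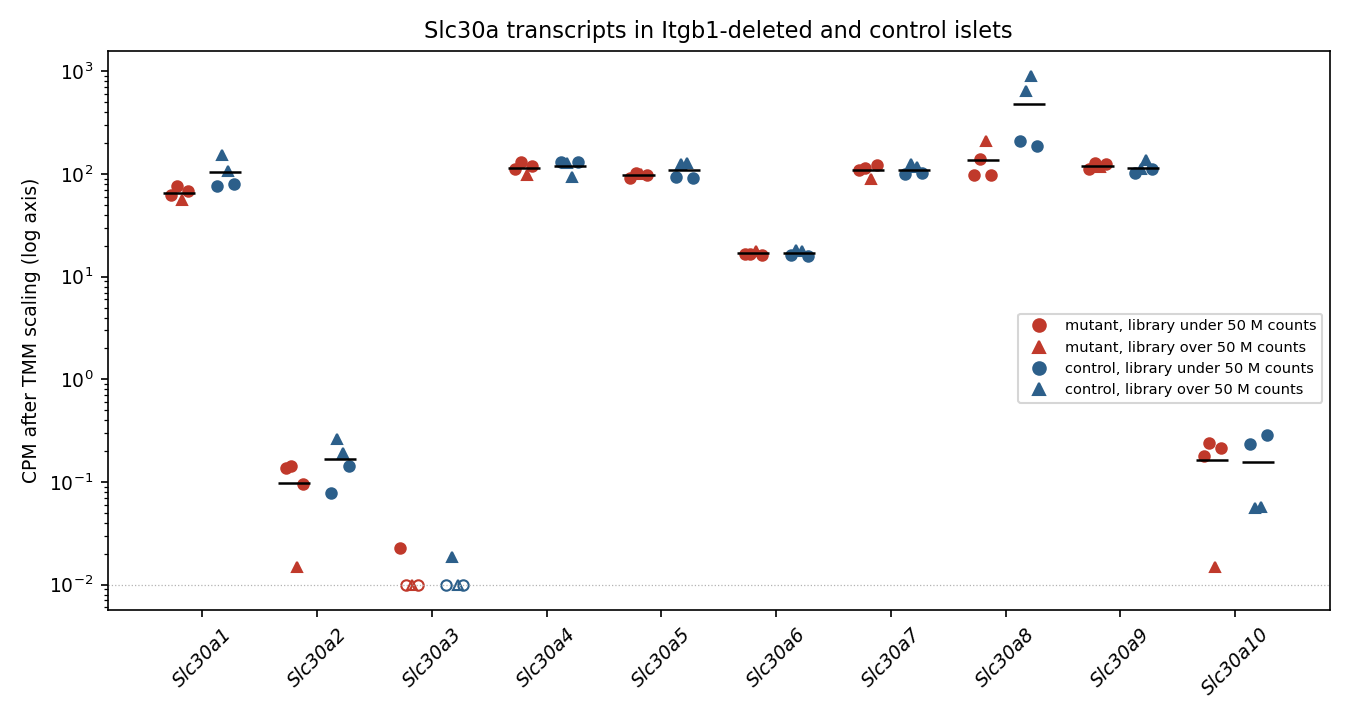
Level of each of the 10 Slc30a members in every library, in CPM after TMM scaling on a log axis, with mutants left of controls in each pair. Triangles are the libraries over 50 M counts, open symbols on the dotted line are libraries with 0 counts, and black bars are group means. Slc30a8 has mutants at 97.2 to 210 CPM and controls at 188 to 900 CPM, while Slc30a6 stays at 15.9 to 18.1 CPM in all 8 libraries.

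*Slc30a8*, the insulin granule transporter, lies on chromosome 15 from 52295553 to 52335733 on the plus strand of GRCm38. It had 97.2, 139, 210 and 98.3 CPM in mutants 1 to 4, against 209, 642, 900 and 188 CPM in controls 1 to 4. The 3 larger libraries held the highest value of their genotype each, or the top pair for the controls, and mutant 3 lay just above controls 1 and 4, so that the groups overlapped through this library alone. The log2 fold change was -1.83 (SE 0.54, 95% interval -3.06 to -0.61, n = 4 each), and the edgeR quasi-likelihood test gave an unadjusted p of 0.00822 and an adjusted p of 0.353. DESeq2 gave -1.84 with an adjusted p of 0.0212, and the adjusted p ranged over 0.0212 to 0.717 across all alternatives. An exact two-sided permutation test of the 8 CPM values gave p = 0.0857. In bulk tissue fewer cells of a type and less RNA per cell cannot be told apart.

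Among the 5 smaller libraries alone, *Slc30a8* was again lower. Mutant 3, through which the groups overlapped, is not among these 5, so the lack of overlap there follows from the choice of libraries. Mutants 1, 2 and 4 had 97.2 to 139 CPM, against 188 and 209 CPM in controls 4 and 1. The log2 fold change within these 5 was -0.84 (SE 0.17; edgeR quasi-likelihood test, unadjusted p = 0.00295, adjusted p = 0.0948). In the 3 larger libraries, the log2 fold change of mutant 3 over the mean of controls 2 and 3 was -1.88, which with 1 mutant has no test. A term for the larger libraries over all 8 gave -1.19 (adjusted p = 0.146). Leaving out controls 2 and 3 together, a choice made after seeing the data, gave -0.54 (adjusted p = 0.717), so the size over all 8 libraries rested largely on these controls, while the sign was negative in each of these fits.

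The same transcript was then set against the insulin transcripts of the same library. *Slc30a8* had 0.446, 0.419, 0.552 and 0.31 counts per 100 counts of *Ins1* plus *Ins2* in mutants 1 to 4, against 0.876, 0.637, 0.587 and 0.781 in controls 1 to 4. Every mutant lay below every control, mutant 3 again being the closest. The means were 0.432 ± 0.0994 in mutants and 0.72 ± 0.132 in controls (SD, n = 4 each), a difference of -0.75 on the log2 scale, or 1.68-fold lower in mutants. The exact two-sided permutation test gave p = 0.0286, the smallest that 4 against 4 allow, and 0.0571 after Benjamini-Hochberg adjustment over the 4 ratios computed, which does not pass 0.05. The difference within the 5 smaller libraries was -1.10, with p = 0.1, the smallest an exact permutation test of 3 against 2 allows. The unadjusted exact permutation p came to 0.0571 without mutant 4 or without any 1 of the controls (differences of -0.84 to -0.60), and stayed at 0.0286 without mutant 1, 2 or 3. A ratio within a library does not depend on scaling between libraries and shows unequal change of its parts. Bulk islet counts do not show which cells supplied *Slc30a8*. The part of islet cells other than β-cells in this ratio was not tested.

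The insulin genes themselves had values above 0 within the smaller libraries, with no difference at an unadjusted p below 0.05 in either direction. For *Ins1* the log2 fold change was -1.52 in all 8 libraries and 0.23 in the 5 (SE 0.19, unadjusted p = 0.28 from edgeR). For *Ins2* it was -1.17 and 0.28 (SE 0.23, unadjusted p = 0.272 from edgeR). Whether *Slc30a8* and the insulin genes differ in this across the division was not tested. The share of insulin transcripts in all counts was 2.35% to 4.03% in mutants, against 2.58% to 11.9% in controls. Of the other hormones, glucagon (*Gcg*) had -1.59 over all 8 and -0.58 within the 5, somatostatin (*Sst*) had -0.95 and -0.62, and pancreatic polypeptide (*Ppy*) had -0.49 and -1.05 (unadjusted p within the 5 of 0.116, 0.0791 and 0.00216 from edgeR).

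A second denominator was the summed counts of 11 granule genes, the chromogranins and secretogranins *Chga*, *Chgb*, *Scg2*, *Scg3* and *Scg5*, the prohormone convertases *Pcsk1* and *Pcsk2* with *Pcsk1n* and *Cpe*, and the granule membrane proteins *Ptprn* and *Ptprn2*. *Slc30a8* had 0.615, 0.72, 0.892 and 0.556 counts per 100 granule gene counts in mutants 1 to 4, against 1.17, 1.46, 1.67 and 0.952 in controls 1 to 4. Again all mutants were below all controls. The log2 difference was -0.91, or 1.88-fold lower in mutants (exact two-sided permutation p = 0.0286, adjusted 0.0571 over the 4 ratios), and -0.75 within the 5 smaller libraries (exact permutation p = 0.1). Without mutant 1, 2 or 4, or without control 2 or 3, the exact permutation p was 0.0571, with differences of -0.93 to -0.78. Of the 11 granule genes themselves, 1 had a higher and 10 a lower value in mutants. At an unadjusted p below 0.05, 6 were lower, where 6.89% of all tested genes were. By edgeR or DESeq2 0 of the 11 were called, against 0% and 1.22% of all genes. Their median log2 fold change of -0.74 came to -0.07 within the 5.

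**Figure D2:**
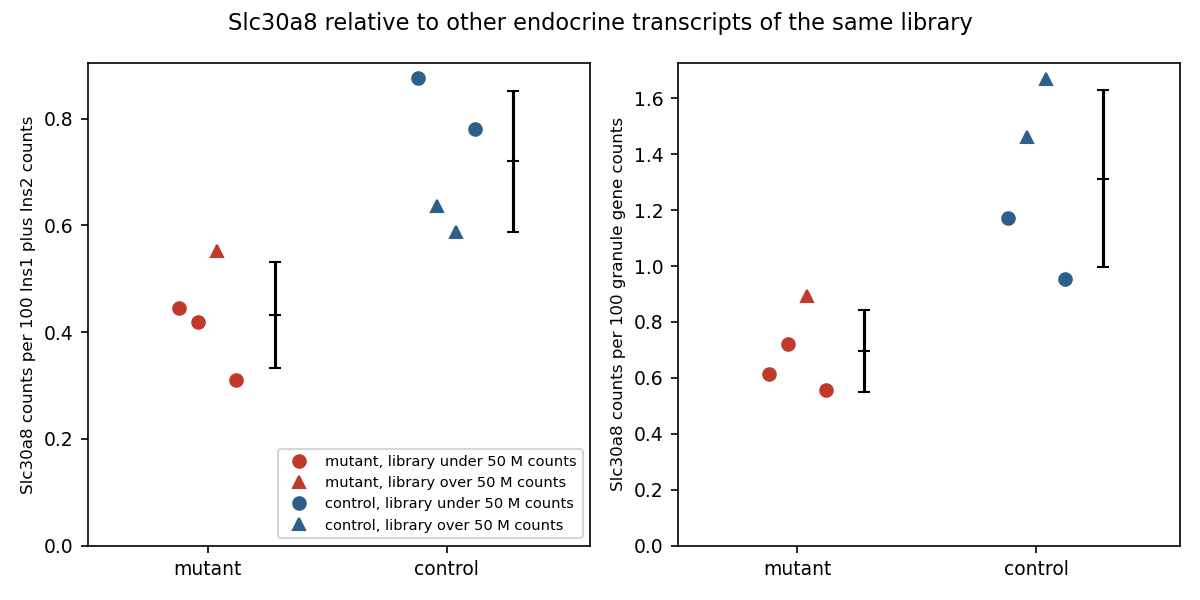
Slc30a8 counts per 100 Ins1 plus Ins2 counts (left) and per 100 counts of 11 granule genes (right) in each library, mutants left of controls. Triangles are libraries over 50 M counts, and bars with whiskers are the mean and SD of 4 libraries. Every mutant lies below every control in both panels, with means of 0.432 and 0.72 per 100 insulin gene counts.

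*Slc30a1*, the plasma membrane exporter that passes zinc out of the cell, lies on chromosome 1 from 191906781 to 191913247 on the plus strand, directly after the promoter shown above. It had 62.5, 76.5, 56.5 and 68.4 CPM in mutants 1 to 4, against 76, 153, 108 and 79.8 CPM in controls 1 to 4. Controls 2 and 3 were the high libraries, and mutant 2 lay just above control 1, so the groups touched at that pair. The log2 fold change was -0.66 (SE 0.23, 95% interval -1.18 to -0.15), with p of 0.0178 unadjusted and 0.353 adjusted in the edgeR quasi-likelihood test, and 0.138 adjusted in DESeq2. In the 5 smaller libraries it was -0.18 (unadjusted p = 0.11). The table also lists 1700034H15Rik on the other strand across 747 bases of the gene, with a mean of 51 counts. Counting at featureCounts defaults does not use strand and leaves out reads that overlap exons of both genes.

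The metallothionein targets of Mtf1 were set beside it. *Mt1*, outside the rule for named genes and given for its promoter, had 446, 792, 675 and 696 CPM in mutants 1 to 4, against 345, 1518, 782 and 498 CPM in controls 1 to 4. *Mt2* had 441, 781, 547 and 736 CPM in mutants 1 to 4, against 461, 1330, 624 and 625 CPM in controls 1 to 4. Control 2 was the highest library for *Slc30a1* and for both metallothioneins, and apart from it the groups ran over a common range for *Mt1* and *Mt2*. Their log2 fold changes were -0.27 (SE 0.43) and -0.28 (SE 0.34) over all 8, and 0.61 and 0.26 within the 5 smaller libraries. *Mtf1* itself had 68.6, 69.2, 60.1 and 69.3 CPM in mutants 1 to 4, against 65.2, 77.4, 105 and 65.3 CPM in controls 1 to 4, a log2 fold change of -0.23 (unadjusted p = 0.197).

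The list of zinc stores and sensors held *Mt1* to *Mt4*, *Mtf1* and *Tmem163*, a vesicular zinc transporter. All 5 with enough counts had values below 0 over the 8 libraries, 0 of them at an unadjusted p below 0.05 and 0 called by either tool, with a median log2 fold change of -0.27. Within the 5 smaller libraries all 5 had values above 0, with a median of 0.29, and 2 were higher at an unadjusted p below 0.05, where 12.7% of 15590 genes were. These were *Mt3*, a brain metallothionein (0.955 CPM on average in mutants and 1.41 CPM in controls over all 8; 1.07 within the 5 on the log2 scale), and *Tmem163* (0.29). Over all 8 libraries they had log2 fold changes of -0.57 and -0.17. *Mt4*, the epithelial metallothionein, had 4 counts in mutants and 0 in controls.

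*Slc30a5*, *Slc30a6* and *Slc30a7* fill the early secretory pathway with zinc, and Slc30a5 and Slc30a6 work as a heterodimer. None of the 3 was different between genotypes at an unadjusted p below 0.05 over all 8 libraries. *Slc30a5*, on chromosome 13, had 91.9, 102, 100.2 and 98.4 CPM in mutants 1 to 4, against 93.8, 125, 127 and 90.9 CPM in controls 1 to 4. The controls split by library size. All mutants lay below the upper pair, mutant 1 lay between the controls of the lower pair, and the other mutants lay above that pair. This gave a log2 fold change of -0.15 (95% interval -0.46 to 0.15). *Slc30a6*, on chromosome 17, varied little, with 16.5, 16.8, 17.9 and 16.4 CPM in mutants 1 to 4, against 16.1, 18.1, 17.8 and 15.9 CPM in controls 1 to 4, and a log2 fold change of -0.01 (95% interval -0.26 to 0.24). Both signs flip under total counts and within the smaller libraries. The log2 ratio of *Slc30a5* to *Slc30a6* counts per kb of transcript was 1.99 ± 0.068 in mutants and 2.12 ± 0.166 in controls (SD, n = 4 each; exact two-sided permutation p = 0.286), so *Slc30a5* was the more abundant transcript of the pair in both genotypes.

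*Slc30a7*, on chromosome 3, had 110, 116, 89.5 and 122 CPM in mutants 1 to 4, against 100.3, 124, 116 and 101 CPM in controls 1 to 4. Mutant 3 was the lowest of all, and the other mutants lay within the range of the controls. Its log2 fold change was -0.02 (95% interval -0.30 to 0.27), and scaling by total counts alone gave 0.15. In the 5 smaller libraries *Slc30a7* was 0.19 log2 units higher (edgeR quasi-likelihood test, unadjusted p = 0.0192, adjusted p = 0.149), with 110 to 122 CPM in mutants, against 100.3 and 101 CPM in controls 1 and 4. Within these 5 libraries, 8 members had enough counts. Of these, *Slc30a7* was higher and *Slc30a8* lower at an unadjusted p below 0.05, where 12.7% of genes were higher and 10.6% lower. Of the 8 members 0 were called, against 10 of all 15590 genes.

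Zinc loaded by these 3 transporters is known to be needed by secreted and membrane enzymes such as tissue-nonspecific alkaline phosphatase (*Alpl*) and the nucleotide pyrophosphatases *Enpp1* and *Enpp3*. *Alpl* had 21.3, 18.2, 6.53 and 24.9 CPM in mutants 1 to 4, against 4.25, 1.93, 8.3 and 6.8 CPM in controls 1 to 4. Mutants 1, 2 and 4 lay above all controls, and mutant 3 lay among them. The log2 fold change was 1.74 (SE 0.52; edgeR quasi-likelihood test, unadjusted p = 0.00878, adjusted p = 0.353; DESeq2, adjusted p = 0.034), and within the 5 smaller libraries it was 1.95. *Alpl* is also made by stromal and endothelial cells, and the summed fibroblast, stellate and pericyte markers given above were higher in mutants. Their part in the *Alpl* values was not tested. *Enpp1* and *Enpp3* had log2 fold changes of -0.32 and -1.15 with unadjusted p of 0.403 and 0.112.

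**Figure D3:**
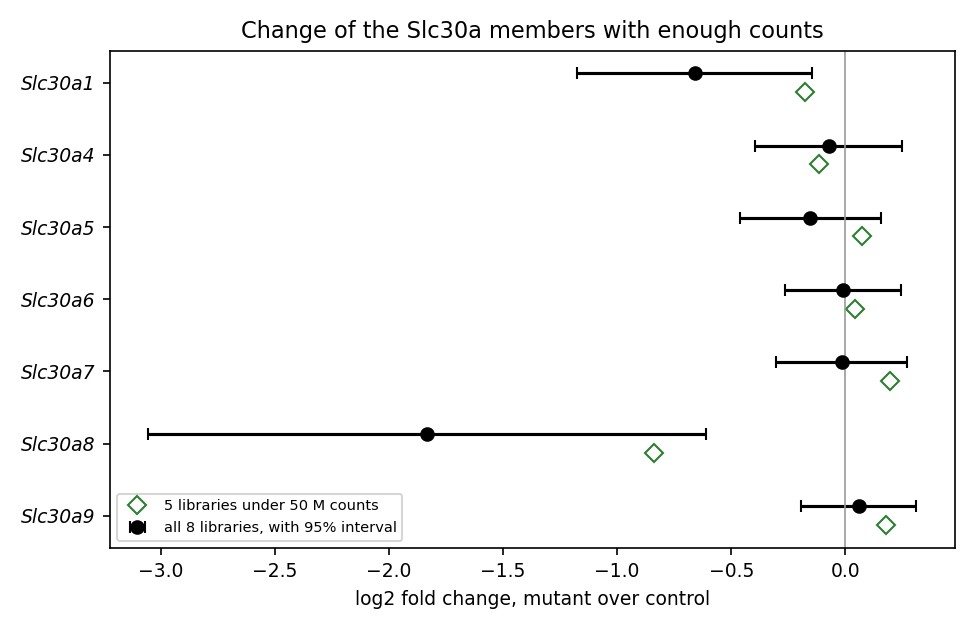
Log2 fold change, mutant over control, of the 7 members tested over all 8 libraries (black points with 95% intervals) and within the 5 libraries under 50 M counts (green diamonds, drawn without intervals). Slc30a8 is farthest below 0 in both fits (-1.83 and -0.84), and the intervals of Slc30a4, Slc30a5, Slc30a6, Slc30a7 and Slc30a9 include 0.

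*Slc30a4* and *Slc30a9* were abundant in every library. *Slc30a4*, an endosomal and vesicular transporter known for zinc supply to milk in the mouse, lies on chromosome 2 and had 112, 130, 97.5 and 119 CPM in mutants 1 to 4, against 130, 129, 93.8 and 131 CPM in controls 1 to 4. Both female libraries, mutant 3 and control 3, were the lowest of their genotype. The fold change on the log2 scale was -0.07 (95% interval -0.39 to 0.25), and 0.06 with total counts. *Slc30a9*, a mitochondrial zinc transporter on chromosome 5, had 113, 129, 117 and 124 CPM in mutants 1 to 4, against 103, 113, 136 and 112 CPM in controls 1 to 4. Control 3 was the highest library, mutant 2 followed it, and the groups overlapped. Its log2 fold change was 0.06 (95% interval -0.19 to 0.31), the only one above 0 among the 7, and it was above 0 in each alternative.

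The remaining 3 members were close to absent. *Slc30a3*, the transporter of synaptic vesicles in the brain, had 1 count in mutant 1, 1 count in control 2 and 0 in the other 6 libraries, where a count of 0 allows up to 0.0443 to 0.0778 CPM, depending on the library. *Slc30a10*, a manganese exporter despite its family name, had 8, 10, 1 and 9 counts in mutants 1 to 4, against 9, 3, 3 and 12 counts in controls 1 to 4. The 3 larger libraries had the fewest counts although they were sequenced more deeply. Pooled over libraries, mutants had 28 counts and controls 27, a ratio per M counts of 0.991 (exact 95% interval 0.563 to 1.75). This and the intervals of the next member cover counting error only.

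*Slc30a2*, on chromosome 4, loads zinc into vesicles of secretory epithelia, among them pancreatic acinar cells. It had 6, 6, 1 and 4 counts in mutants 1 to 4, against 3, 14, 10 and 6 counts in controls 1 to 4. Controls 2 and 3, the libraries with the highest acinar marker sums, held most of the control counts. Pooled, mutants had 17 counts and controls 33, a ratio per M counts of 0.492 (exact 95% interval 0.257 to 0.91). Set against the summed acinar markers, the log2 ratio differed by 1.11 between mutants and controls (exact two-sided permutation p = 0.486), and by -0.63 within the 5 smaller libraries, so no direction held. The table lists *Eno1b* over the whole span of *Slc30a2* on the same strand, and at featureCounts defaults a read that overlaps exons of both genes is counted for neither.

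Per kb of transcript, which allows levels of different genes to be compared, *Slc30a8* led the family in every library of either genotype. Mean levels in mutants were 71.7 CPM per kb for *Slc30a8*, 35.5 for *Slc30a9*, 31.1 for *Slc30a5*, 21 for *Slc30a4*, 12.6 for *Slc30a1*, 12.1 for *Slc30a7* and 7.83 for *Slc30a6*. In controls they were 255 CPM per kb for *Slc30a8*, 34.5 for *Slc30a5*, 34 for *Slc30a9*, 22 for *Slc30a4*, 19.9 for *Slc30a1*, 12.3 for *Slc30a7* and 7.88 for *Slc30a6*. *Slc30a2*, *Slc30a3* and *Slc30a10* averaged at most 0.0465 CPM per kb in either genotype. In mutants the order of the first 7 held in all 4 libraries except between *Slc30a1* and *Slc30a7*, whose levels overlapped. In controls *Slc30a5* and *Slc30a9* overlapped, as did *Slc30a4* and *Slc30a1*, each pair being in this order in 2 of 4 libraries.

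*Slc30a8* made up 30.9%, 36.1%, 49.5% and 29.5% of the summed family level per kb in mutants 1 to 4, against 48.5%, 69.6%, 77.3% and 45.3% in controls 1 to 4. Mutant 3 was above controls 1 and 4, and the other mutants were below all controls. The sum over the family was 165.7 to 223.6 CPM per kb in mutants, against 218.6 to 613.1 CPM per kb in controls. Without *Slc30a8*, the sum of the other 9 members was 113 to 129.4 CPM per kb in mutants, against 116.7 to 147.7 CPM per kb in controls.

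**Figure D4:**
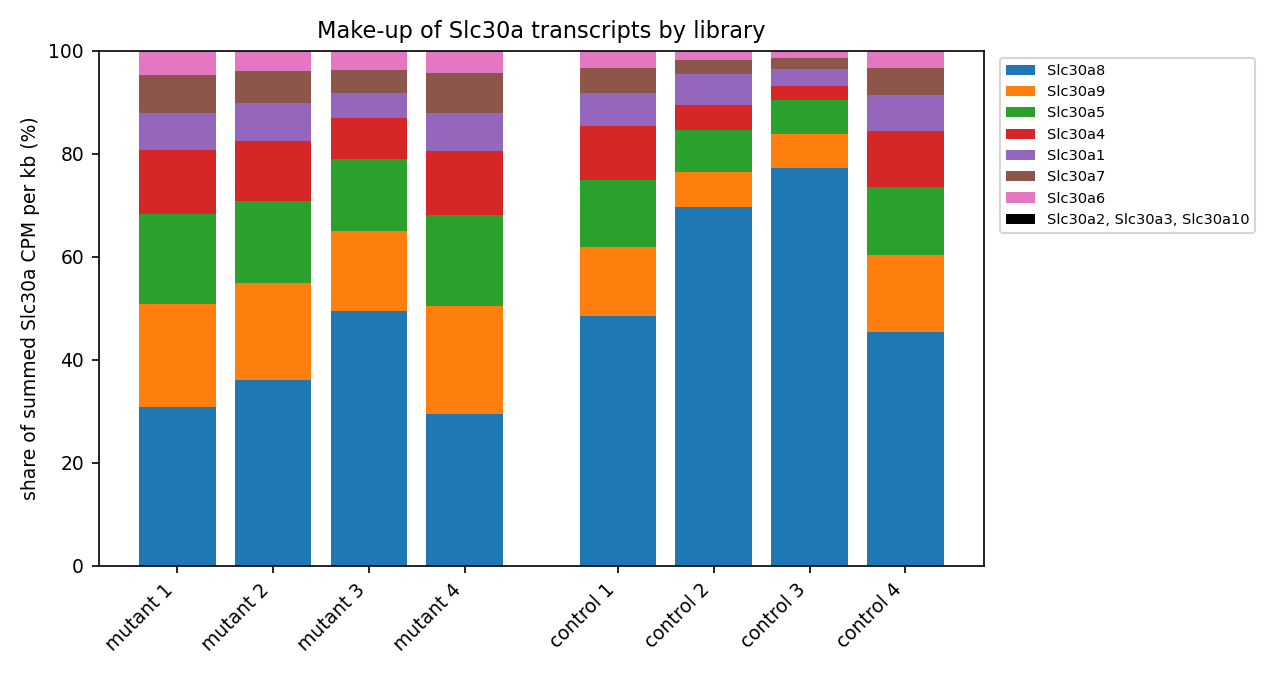
Share of each Slc30a member in the summed CPM per kb of the family, in percent, 1 stacked bar per library with mutants left of controls. Slc30a8, at the base, takes 29.5% to 49.5% in mutants and 45.3% to 77.3% in controls, and Slc30a2, Slc30a3 and Slc30a10 are too low to be seen.

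Of the opposing family, the 14 Slc39a importers, 12 had enough counts, of which 8 had values above and 4 below 0, with a median log2 fold change of 0.30. At an unadjusted p below 0.05, 3 were higher and 0 lower, where 6.4% and 6.89% of all genes were, and 0 were called by edgeR or DESeq2. The count of 3 came to 0 without mutant 4, to 1 without mutant 1, mutant 2 or control 2, and to 6 without control 4 (5 higher and 1 lower). *Slc39a14*, which imports zinc, iron and manganese, had 79.1, 79.2, 66.7 and 96.2 CPM in mutants 1 to 4, against 62.1, 45.4, 66.3 and 59.7 CPM in controls 1 to 4. Its mutants all lay above its controls, mutant 3 and control 3 being nearly level, and the log2 fold change was 0.46 (SE 0.15; edgeR quasi-likelihood test, unadjusted p = 0.0159, adjusted p = 0.353). The plasma membrane importers *Slc39a1* and *Slc39a6* had log2 fold changes of 0.63 and 0.51 (unadjusted p = 0.0448 and 0.0487), and *Slc39a13*, a Golgi and vesicle transporter, had -0.42 (unadjusted p = 0.0749). *Slc39a12* was not tested and had 3, 5, 3 and 4 counts in mutants 1 to 4, against 1, 2, 0 and 0 counts in controls 1 to 4. Within the 5 smaller libraries *Slc39a1*, *Slc39a6*, *Slc39a7*, *Slc39a8* and *Slc39a14* were higher and *Slc39a2* lower at an unadjusted p below 0.05, where 12.7% and 10.6% of genes were.

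**Figure D5:**
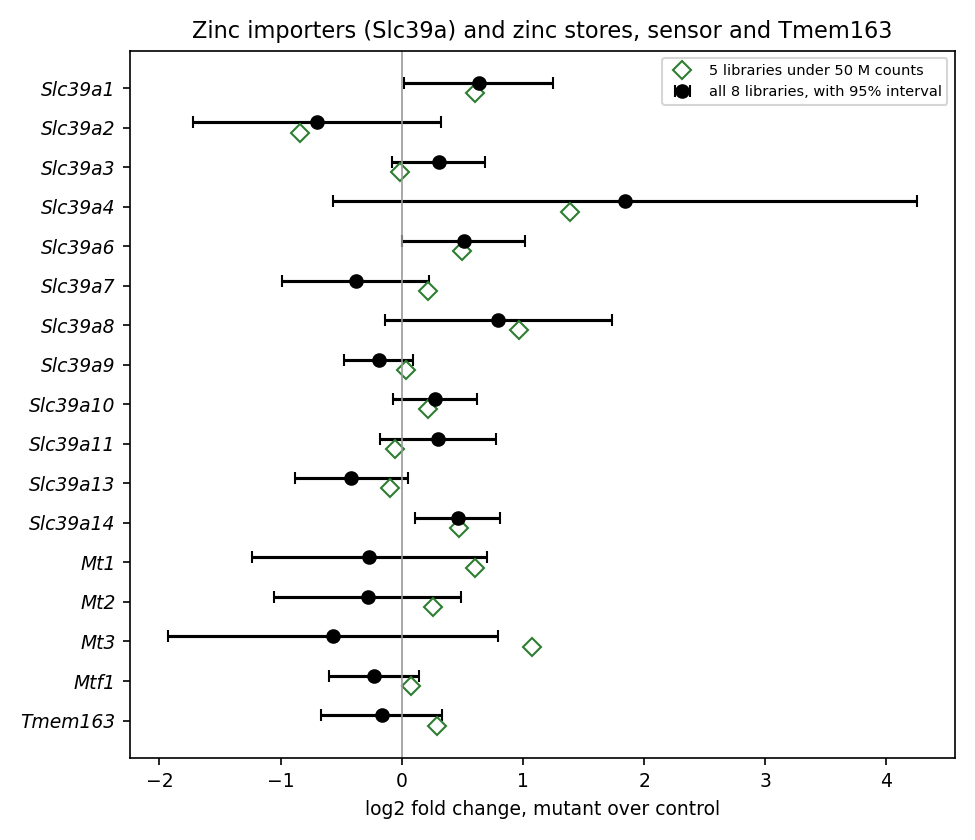
Log2 fold change, mutant over control, of the tested Slc39a importers and of the zinc store and sensor genes, over all 8 libraries (black points with 95% intervals) and within the 5 libraries under 50 M counts (green diamonds, drawn without intervals). The importers have a median of 0.30 over all 8, and the 5 store and sensor genes are below 0 over all 8 and above 0 within the 5.

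Across the 8 libraries, the genes with the pattern most like that of *Slc30a8* were *Robo2*, *Ate1*, *Btbd10*, *Slc2a2* and *Ripply3*, with Pearson correlations of log2(CPM + 1) of 0.998, 0.997, 0.996, 0.995 and 0.994. They were the first 5 of 9852 genes with a mean of at least 10 CPM, of which 254 had a correlation above 0.95. The libraries differ in genotype, depth and islet content, and the part of these in the correlations was not tested, so the correlations are a description. *Slc2a2*, the glucose transporter of mouse β-cells, had 16, 28.4, 43.8 and 17.5 CPM in mutants 1 to 4, against 40.1, 185, 335 and 31 CPM in controls 1 to 4, with the same overlap through mutant 3. *Robo2*, an axon guidance receptor, had 71 to 111 CPM in mutants, against 106 to 273 CPM in controls. Within the 5 smaller libraries a different set led (*Akirin2*, *Rpgr*, *Gstz1*, *Prepl* and *Tgfbrap1*), with 0 of 5 shared, while the correlations of the first 5 there were still 0.973 to 0.994. Among the other members the correlation with *Slc30a8* was 0.876 for *Slc30a5*, 0.807 for *Slc30a1*, 0.709 for *Slc30a6*, 0.235 for *Slc30a9*, 0.203 for *Slc30a7* and -0.331 for *Slc30a4*. It was 0.912 for *Ins1*, 0.903 for *Ins2* and 0.954 for *Gcg*.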

How the data were processed

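Raw counts per gene were deposited by the authors for 8 islet RNA-seq libraries, made from ribosome-depleted RNA from trimmed single-end reads aligned to mm10 by STAR and assigned to genes by featureCounts at its defaults. Versions of STAR, featureCounts and edgeR are not in the submitters' processing notes, which list GRCm38 as the build. A deposited table of the authors' comparison (fold changes, p-values and 8 further per-sample columns) was not used. The counts of all genes were fitted with edgeR 4.0.16 in R 4.3.3 (filterByExpr, TMM, genotype as the only term, quasi-likelihood test, Benjamini-Hochberg adjustment over 15233 genes), and calls needed an adjusted p under 0.05 with a fold change over 2. Standard errors are the size of the log2 fold change over the square root of F. The batches that the study corrected are not named in its text, so no batch term entered. Total counts were 35.1 to 67.6 M, and the 7 tested members had 621 counts or more in every library. CPM per kb used the transcript length of the deposited table, whose length column is in kb. Libraries were compared pairwise, and the smallest chi-square per gene was 26.8, so none was deposited in duplicate. Single values had exact two-sided permutation tests. A pseudocount of 0.5 was added to *Slc30a2* counts in its ratio, and 1 to CPM before correlations. Libraries were divided at 50 M counts. Alternatives were DESeq2 1.42.0, edgeR's legacy quasi-likelihood form, RLE factors, total counts, no filter, a replicate block, a term for the larger libraries, the 5 smaller libraries and leaving out each library. Tests were checked on simulated counts with the same spread for every gene, where libraries differed only in depth and genotype. That setting does not cover the differences between larger and smaller libraries seen here. Named genes were the 10 members, the 4 genes of each other zinc list with the smallest p and those whose groups did not overlap, hormones, 3 zinc enzymes, the 5 closest neighbours of *Slc30a8* and *Itgb1*. The members and lists were chosen with earlier results of these data known. Markers of 9 cell types were summed in CPM. Promoters came from RefSeq on GRCm38.p6.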

Additional observations from a re-analysis of the deposited data

Results flagged for a closer look

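Of 60 groups of 4 libraries screened, 4 had a library far from the other 3 by Dixon's ratio, and chance flags about 1 in 20. In *Slc30a4*, control 3 had 93.83 CPM, where the other controls had 128.5 to 130.5 CPM. In *Mtf1*, mutant 3 had 60.09 CPM, where the other mutants had 68.55 to 69.3 CPM. In *Slc30a3*, mutant 1 had 0.02261 CPM and control 2 had 0.01855 CPM, each from 1 count where the other libraries of the genotype had 0.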

How the results depend on the processing

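The *Slc30a8* log2 fold change was below 0 in all 17 alternatives, from -2.12 to -0.54, and leaving out 1 library gave -2.12 to -1.35. DESeq2 alone brought it past the threshold (-1.84). The 17 include edgeR's legacy quasi-likelihood form, which gave the same values as the main fit and so adds no separate check. *Slc30a1* kept its sign throughout (-0.78 to -0.18). The number of genes called was 0 in edgeR's main test, 186 with DESeq2, 4 with a term for the larger libraries and 10 within the 5 smaller libraries; its other alternatives, each library left out in turn included, gave 0. Of members at an unadjusted p below 0.05 there were 2, but 1 with the term and 0 when controls 2 and 3 were both left out (chosen after seeing the data). For the Slc39a list the count of 3 became 5 without a filter, 5 with the replicate block, 6 within the 5 smaller libraries, and 0 to 6 without 1 library; for the store and sensor list it was 2, not 0, within the 5 and without both controls.

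Signs reversed for members near 0. With total counts, which moved the median of all genes to 0.15, *Slc30a4* had 0.057, *Slc30a5* 0.027, *Slc30a6* 0.15 and *Slc30a7* 0.15. Within the 5 smaller libraries *Slc30a5* had 0.075, *Slc30a6* 0.042 and *Slc30a7* 0.19, and without controls 2 and 3 they had 0.089, 0.075 and 0.11; with the term *Slc30a6* had 0.028. Leaving out 1 library gave -0.040 to 0.021 for *Slc30a6* and -0.071 to 0.066 for *Slc30a7*. The cause was not tested.

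*Slc30a8* over insulin genes was -1.10 within the 5, -0.97 without controls 2 and 3, and -0.88 to -0.60 without 1 library; over granule genes it was -0.75, -0.63 and -1.05 to -0.78. With the replicate block they were -0.75 and -0.91 (exact sign-flip p = 0.125 for both, the smallest 4 pairs allow). Exact tests within the 5 libraries or without both controls cannot go below 0.1 and 0.0667, and without 1 library p was 0.0286 or 0.0571. *Slc30a2* over acinar markers reversed to -0.63 within the 5 and -1.15 without controls 2 and 3, and was 0.01 to 2.16 without 1 library. Of the 5 neighbours of *Slc30a8*, 0 were among the first 5 within the smaller libraries.

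Deviations of same-numbered libraries correlated at 0.434, -0.0378, 0.426 and 0.224 for numbers 1 to 4. As 1 of the 4 was not above 0.1 and no label ties a number to an animal or day, the numbers were not taken to pair the samples, though the other 3 were above it. The block gave -1.59 (SE 0.26, adjusted p = 0.126) for *Slc30a8* and -0.61 (SE 0.17, adjusted p = 0.186) for *Slc30a1*. With the block, 0 genes were called and at an unadjusted p below 0.05 the split was 1559 higher to 1128 lower, against 975 to 1050 without it; with total counts it was 1075 to 503. Depth limits only *Slc30a2*, *Slc30a3* and *Slc30a10* among the members.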
